A study of Equus caballus with 10 samples.

Results

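The miR-29 family was described here by its 3 members in the deposited tables, eca-miR-29a, eca-miR-29b and eca-miR-29c, out of 239 horse miRNAs in all. They were taken by name, and their counts were followed over 10 small RNA libraries. In mammals, the members of this family arise from separate gene clusters, in which miR-29b is made beside miR-29a or beside miR-29c, and they share the seed with which a miRNA recognizes its targets. They are best known, from human and mouse work, for repressing messenger RNAs of the extracellular matrix, among them fibrillar collagens, elastin and fibrillin, and their levels are known to fall in fibrosis. Chondrocytes, which build cartilage, and fibroblast-like synoviocytes, which build the synovial lining, both make such a matrix.

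The libraries held RNA captured through 5-ethynyl uridine (5-EU), a uridine analogue that enters newly made RNA in the donor cells, is coupled to biotin and is caught on beads. EV-recipient chondrocytes (n = 5 horses), kept at 5% oxygen, had received extracellular vesicles (EVs) pooled from 5-EU-labelled synoviocytes of 9 horses. EV-recipient synoviocytes (n = 4 horses), kept at 25% oxygen, had received EVs pooled from 5-EU-labelled chondrocytes of 8 horses. Donor medium was collected after 48 h with the label, recipient cells were kept with EVs for 24 h, and all were primary cells in monolayer at passage 1 and 2, respectively, from horses for which the study set an age limit of 15 years. The last library, called the control here, is titled as a synoviocyte without the word control. The group row of the deposited tables marks it as a negative synoviocyte sample, and the study describes a control that had received EVs from chondrocytes of 2 horses cultured without 5-EU. It entered no comparison. Within a group, the recipient cells of each library came from a horse of their own. Whether the groups share horses is not stated. The EVs given to a group were 1 pool. The recipient cell type, the EV source, the amount of EVs given and the oxygen level changed together and cannot be told apart. In such bulk samples fewer cells of a type and less RNA per cell cannot be told apart either. From here on, chondrocyte and synoviocyte replicates or libraries are named by the recipient cell.

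Libraries held 4891 to 444408 miRNA counts beside 127834 to 364813 spike-in counts, and chondrocyte replicate 1 was the shallowest. Levels are given as RPM, that is counts of a miRNA per 1000000 miRNA counts of its library. Among lists of marker miRNAs, both arms of the cartilage miRNA miR-140 summed to 204 to 3805 RPM in chondrocytes and to 0 to 182 RPM in synoviocytes, while the control, a synoviocyte library by its title, held 787 RPM. The 5 mesenchymal miRNAs summed to 23361 to 51319 RPM and 30882 to 95324 RPM, respectively. The 6 blood cell miRNAs in the table summed to 45.7 to 3680 RPM in chondrocytes and 55.0 to 17025 RPM in synoviocytes. The control held 1722 RPM of them, and the highest value was in synoviocyte replicate 4. By mean RPM eca-miR-451 of red cells led in synoviocytes, at 3183 RPM. In chondrocytes eca-miR-223 led, at 532 ± 1189 RPM (SD, n = 5) beside 378.5 RPM for eca-miR-451. The eca-miR-223 mean came from chondrocyte replicate 1, the shallowest library, alone. The part of the blood cell miRNAs in the levels below was not tested. Markers of endothelium were at 0 in all chondrocyte libraries and the control and at 0 to 93.0 RPM in synoviocytes. Those of epithelium were at 0 to 1399 RPM in synoviocytes, with counts in replicate 4 alone, of liver at 0 to 470 RPM in chondrocytes, of muscle at 0 to 124 RPM in any library and of neural cells at 0 to 75.6 RPM, and all of these were at 0 in the control.

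The family made up about the same part of the miRNAs in both recipient groups. It summed to 18527 ± 2249.5 RPM (SD, n = 5) in chondrocytes and 19467 ± 3776 RPM (SD, n = 4) in synoviocytes, or 1.85% and 1.95% of miRNA counts. The family sums of single libraries were 21059, 20153, 17486, 15349 and 18589 RPM in chondrocytes. In synoviocytes they were 13888.5, 21848, 21724 and 20407 RPM. The groups overlapped, since replicate 1 was the lowest of all libraries while the other synoviocytes stood near the top. The control stood at 24397 RPM, above each of the 9 labelled libraries, with a 95% Wilson interval of 22365 to 26610 RPM that covers counting error only, as PCR-amplified reads are not independent molecules.

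eca-miR-29a carried most of the family. It held 102, 8234, 651, 4119 and 1574 counts in the chondrocyte libraries and 5653, 3832, 660 and 327 in the synoviocyte libraries, so that it was counted in every library whatever its depth. As RPM this came to 20855, 18528, 16402.5, 14464 and 15962 in chondrocytes. Synoviocytes gave 12951.5, 19929, 20453 and 19066 RPM. The lowest and the highest library differed by a factor of 1.61 over libraries whose depth differed by a factor of 90.9. eca-miR-29a ranked between 9th and 23rd among the miRNAs of each labelled library and 13th in the control.

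**Figure D1:**
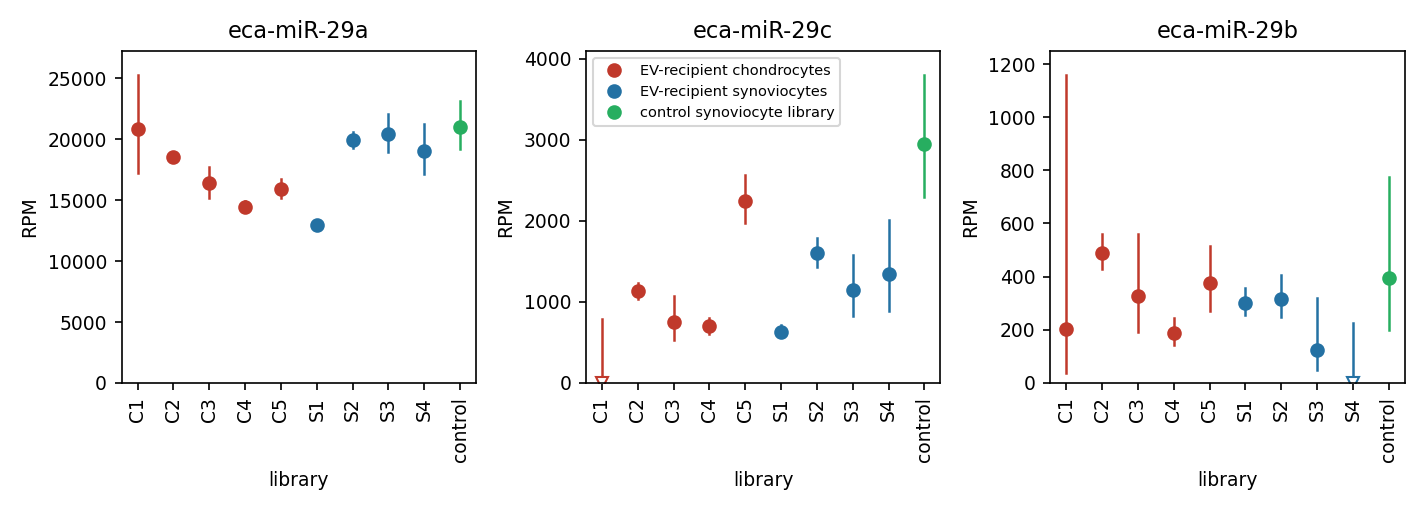
RPM of eca-miR-29a, eca-miR-29c and eca-miR-29b (vertical axes, each from 0 and on its own scale) in each library: chondrocyte replicates 1 to 5 (C1 to C5, red), synoviocyte replicates 1 to 4 (S1 to S4, blue) and the control (green). Points are values, lines are 95% Wilson intervals for counting error, and open triangles mark a count of 0; for eca-miR-29a the 9 labelled libraries lie between 12951.5 and 20855 RPM and the 2 recipient groups overlap.

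No difference between the recipient groups was found for eca-miR-29a. Its mean was 17242 ± 2488 RPM (SD, n = 5) in chondrocytes and 18100 ± 3480 RPM (SD, n = 4) in synoviocytes, a difference of 858 RPM that was smaller than either spread (two-sided exact permutation test, p = 0.667, where 5 against 4 libraries cannot go below 0.00794). In edgeR's quasi-likelihood test with TMM normalization over the 49 miRNAs that passed the study's abundance filter, the log2 fold change of synoviocytes over chondrocytes was 0.21 (standard error 0.22, adjusted p = 0.648). The 95% interval ran from -0.26 to 0.69 on the log2 scale, or from 0.834-fold to 1.61-fold. In the same test 8.16% of the 49 miRNAs were called at an adjusted p under 0.05.

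Synoviocyte replicate 1 was the lowest library of its group. At 12951.5 RPM (Wilson interval 12620 to 13291) its eca-miR-29a lay below the 19066 to 20453 RPM of the others. In this library eca-miR-21, the most abundant miRNA and one known to promote fibrosis, took 44.5% of miRNA counts, against 26.7% to 30.1% in the other synoviocytes. Relative to the miRNA counts without eca-miR-21, eca-miR-29a in replicate 1 came to 23345.5 RPM beside 27273 to 28194 in the others. On that scale, chosen after the data were seen, the means were 22117 ± 3859 (SD, n = 5) in chondrocytes and 26679 ± 2255 (SD, n = 4) in synoviocytes. The difference still missed the threshold (exact permutation test, two-sided, p = 0.0952). The scale is not neutral between the groups, since eca-miR-21 averaged 216291 RPM in chondrocytes and 326574 RPM in synoviocytes. Leaving it out therefore raises the other miRNAs more in synoviocytes on average.

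eca-miR-29a was among the steadiest of the abundant miRNAs. Its coefficient of variation over the 9 labelled libraries was 15.9%, the 2nd lowest of the 49 miRNAs that passed the filter, whose median was 40.3%. Only eca-miR-26a, another abundant miRNA, was lower, at 8.53%. By mean RPM eca-miR-29a was the 17th miRNA at 17623 RPM. Its neighbours in that order were eca-miR-16 and eca-miR-125a-5p above and eca-miR-125b-5p and eca-miR-93 below, with coefficients of variation of 17.4%, 31.7%, 27.2% and 27.2%, and differences in spread between miRNAs were not tested. None of these neighbours passed the threshold between the groups in edgeR's quasi-likelihood test (adjusted p between 0.531 and 0.99).

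**Figure D2:**
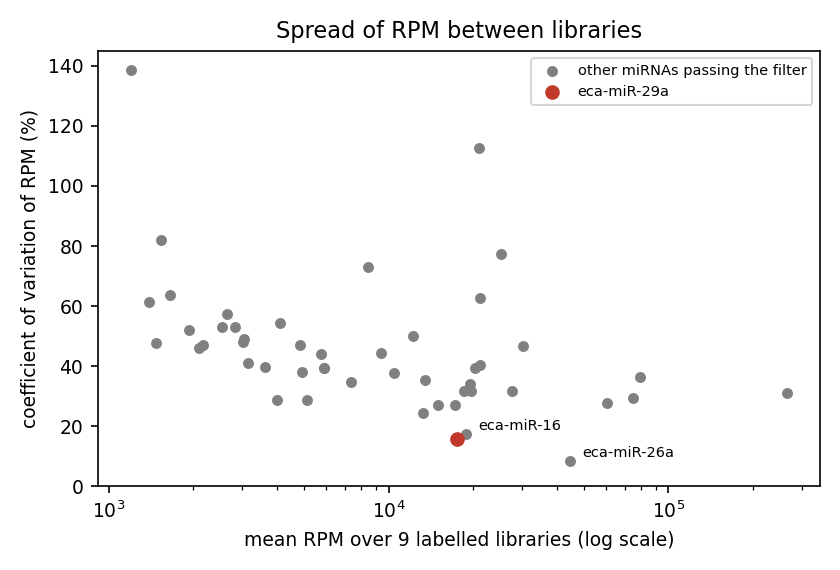
Coefficient of variation of RPM over the 9 labelled libraries (vertical axis, percent, from 0) against mean RPM (horizontal axis, log scale) for the 49 miRNAs that passed the study's abundance filter, one point per miRNA. eca-miR-29a (red) lies at 15.9%, between eca-miR-26a at 8.53% and eca-miR-16 at 17.4%.

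On the scale of the spike-in calibrators, which are added in equal volume before library preparation, eca-miR-29a was not steady. It stood at 0.280, 43.6, 5.09, 20.8 and 6.13 counts per 1000 spike-in counts in chondrocytes. Synoviocytes gave 32.3, 18.7, 4.89 and 1.21. These values followed the miRNA counts of the libraries, differed by a factor of up to 156 among chondrocytes and 26.7 among synoviocytes, and overlapped fully between the groups. With spike-in counts as library size the log2 fold change was -0.09 (standard error 1.56, adjusted p = 0.997 in edgeR's quasi-likelihood test), so on this scale the direction turned and the error left room for large changes either way.

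**Figure D3:**
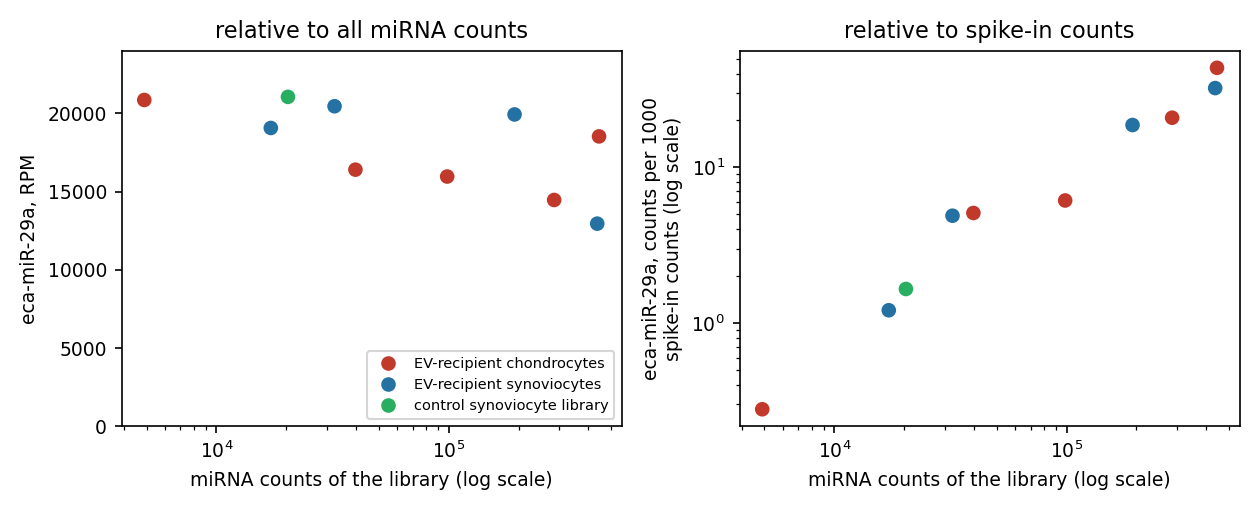
eca-miR-29a in the 10 libraries against the miRNA counts of the library (horizontal axes, log scale), as RPM from 0 (left) and as counts per 1000 spike-in counts on a log scale (right); colours mark chondrocytes, synoviocytes and the control. RPM lies between 12951.5 and 21053 at every depth, while the value per 1000 spike-in counts runs from 0.280 to 43.6 and is highest in the deepest libraries.

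eca-miR-29a was also abundant in the control, at a level near the highest libraries of both recipient groups. The control held 428 counts, or 21053 RPM with a Wilson interval of 19168 to 23118 RPM. This interval overlaps those of synoviocyte replicates 2, 3 and 4 and of chondrocyte replicate 1, and lies above that of synoviocyte replicate 1. Per 1000 spike-in counts the control stood at 1.66, between synoviocyte replicates 4 and 3. With 1 control library there is no test of this comparison.

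eca-miR-29c was the next member, at a mean of 5.93 counts in chondrocytes and 6.39 in synoviocytes for every 100 of eca-miR-29a. It held 0, 504, 30, 199 and 222 counts in chondrocytes and 277, 308, 37 and 23 in synoviocytes. The RPM were 0, 1134, 756, 699 and 2251 in chondrocytes. In synoviocytes they were 635, 1602, 1147 and 1341. Chondrocyte replicate 5 was the highest of the 9, and the groups overlapped over the whole range of synoviocytes. The only library without a count was the shallowest, where 0 of 4891 counts allows up to 613 RPM at a floor of 3 counts. The other chondrocytes lay between 699 and 2251 RPM, and at 699 RPM a library of that depth would be expected to give 3.42 counts. The Wilson interval of the shallowest library reached 785 RPM. It covers the 756 and 699 RPM of chondrocyte replicates 3 and 4, so counting error alone does not set the 0 apart from them.

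The mean of eca-miR-29c was 968 ± 826 RPM (SD, n = 5) in chondrocytes and 1181 ± 409 RPM (SD, n = 4) in synoviocytes, and no difference was found (exact permutation test, two-sided, p = 0.683). The member did not pass the study's filter, which asked for 2045 RPM in 2 of the 9 labelled libraries. In the fit over the 100 miRNAs kept by edgeR's own filter its log2 fold change was 0.23 (standard error 0.78, adjusted p = 0.95 in edgeR's quasi-likelihood test), with a 95% interval of -1.42 to 1.88. In that fit 5% of the 100 miRNAs were called at an adjusted p under 0.05. Without chondrocyte replicate 1 the log2 fold change was -0.03, so the sign rested on the library with no count, and without chondrocyte replicate 5 it was 0.74.

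The proportion of eca-miR-29c to eca-miR-29a differed between libraries of the same group. These members have nearly identical mature sequences, and the authors' mapping allowed 1 mismatch, so reads of the abundant member may be counted for the other. The extent of this was not tested. eca-miR-29c made up 0, 5.77, 4.41, 4.61 and 12.4% of the counts of both members in chondrocytes. In synoviocytes it made up 4.67, 7.44, 5.31 and 6.57%. Most libraries thus lay between 4.41% and 7.44%, and chondrocyte replicate 5 stood higher, with a Wilson interval of 10.9% to 13.96%. Chondrocyte replicate 1 stood lower, with 0 counts beside 102 of eca-miR-29a and a Wilson interval of 0 to 3.63%. That interval overlaps the 3.10% to 6.22% of chondrocyte replicate 3. The control reached 12.3% (9.67% to 15.5%), a share like that of replicate 5 and above those of the 4 synoviocyte libraries. The intervals cover counting error only, and differences between libraries were not tested.

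**Figure D4:**
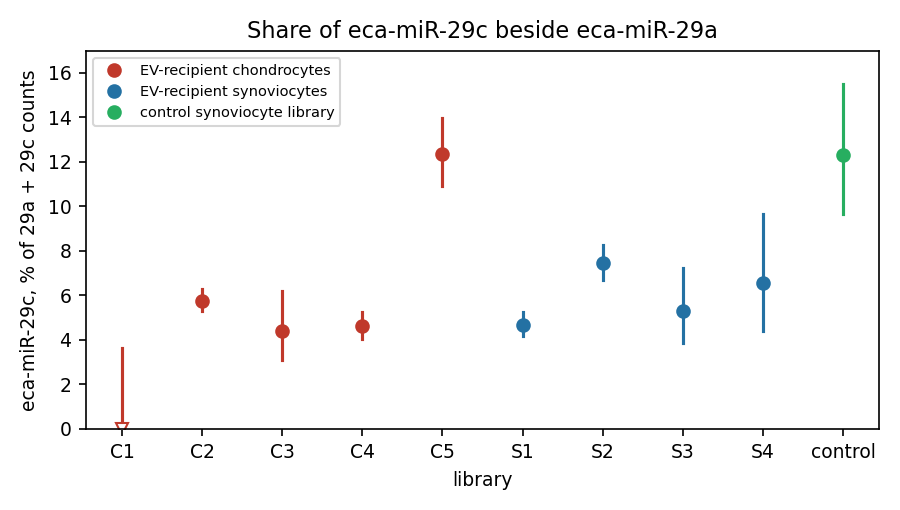
eca-miR-29c as a percentage of the summed counts of eca-miR-29a and eca-miR-29c (vertical axis, from 0) in each library, with 95% Wilson intervals for counting error; C1 to C5 are chondrocytes (red), S1 to S4 synoviocytes (blue), the control is green, and the open triangle marks a count of 0. C5 at 12.4% and the control at 12.3% lie above the other libraries, which reach at most 7.44%.

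In RPM, too, eca-miR-29c was high in the control. Its 60 counts came to 2951 RPM (Wilson interval 2294 to 3797), and the highest synoviocyte library had an interval of 1433 to 1791 RPM. Chondrocyte replicate 5, at 1974 to 2567 RPM, overlapped the control.

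eca-miR-29b was the least abundant member. It held 1, 218, 13, 53 and 37 counts in chondrocytes, or 204, 491, 328, 186 and 375 RPM. Synoviocytes held 132, 61, 4 and 0 counts, or 302, 317, 124 and 0 RPM. The groups overlapped between 186 and 317 RPM, and the lowest values were those of synoviocyte replicates 3 and 4, which held at most 4 counts. In synoviocyte replicate 4, 0 of 17151 counts allows up to 175 RPM, which covers the 124 RPM of replicate 3. The control held 8 counts, or 394 RPM (Wilson interval 199 to 776), within the range of chondrocytes.

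The mean of eca-miR-29b was 317 ± 125.9 RPM (SD, n = 5) in chondrocytes and 186 ± 152 RPM (SD, n = 4) in synoviocytes, a difference that did not hold up against the spread (exact permutation test, two-sided, p = 0.19). Its log2 fold change in the fit over 100 miRNAs was -0.54 (standard error 0.90, adjusted p = 0.892 in edgeR's quasi-likelihood test), with a 95% interval of -2.45 to 1.37. That interval spans 0.183-fold to 2.59-fold, so the counts could not separate a loss from a gain of that size.

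The mean make-up of the family was close in both groups. eca-miR-29a made up 93.0 ± 4.76% of family counts in chondrocytes (SD, n = 5) and 93.0 ± 1.26% in synoviocytes (SD, n = 4). eca-miR-29c made up 5.32 ± 4.36% and 5.94 ± 1.25%, and eca-miR-29b 1.70 ± 0.60% and 1.05 ± 0.960%, respectively. The share of eca-miR-29a ran from 85.9% in chondrocyte replicate 5 to 99.0% in replicate 1, where the family had 103 counts. The control, at 86.3% eca-miR-29a, 12.1% eca-miR-29c and 1.61% eca-miR-29b, was closest to chondrocyte replicate 5, at 85.9%, 12.1% and 2.02%.

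None of the 3 members passed the test between the groups, in either direction, at an adjusted or an unadjusted p under 0.05 in edgeR or in the exact permutation test. The last was run on all 239 miRNAs, of which 7.95% had an unadjusted p under 0.05 and 0 an adjusted p under 0.05. In edgeR an unadjusted p under 0.05 was reached by 18.4% of the 49 miRNAs and 17% of the 100. The RPM of the recipient groups overlapped for all 3 members, while they did not overlap for 16.3% of the 49 miRNAs and 11% of the 100.

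Other miRNAs known to act on matrix genes or in fibrosis are given here by their counts beside those over all miRNAs. Of 16 such miRNAs in the table, 6 passed the study's filter, of which 1 was lower and 0 were higher in synoviocytes at an adjusted p under 0.05 in edgeR (8.16% of the 49 were called), and 2 were lower and 1 higher at an unadjusted p under 0.05 (18.4% of the 49). In the exact permutation test 7 of the 16 had an unadjusted p under 0.05, 4 lower and 3 higher in synoviocytes, against 7.95% of the 239. Many of the 239 were counted in too few libraries for that test to reach 0.05, so their share is not a like background. The list was also chosen with earlier results of these data known. None of the 16 passed after adjustment in that test, where even the smallest possible p, 0.00794, came to an adjusted p of 0.316. The 4 lower ones included both arms of miR-140. The 3 higher ones were eca-miR-21, eca-miR-146a (means of 284 RPM in chondrocytes and 1461 RPM in synoviocytes) and eca-miR-145 (13.8 and 273 RPM). The median log2 fold change of the 6 was -0.19, beside 0.06 over all 49. eca-miR-27b, which represses the collagenase MMP13 in human chondrocytes, was the one that fell, from 40662.5 ± 8952 RPM in chondrocytes (SD, n = 5) to 5862 ± 2135 RPM in synoviocytes (SD, n = 4), with a log2 fold change of -2.61 (standard error 0.31) and an adjusted p of 8.24e-05 in edgeR's quasi-likelihood test, although no miRNA passed with spike-in counts as library size. The control held 51746 RPM of it. The log2 fold change of eca-miR-21 was 0.76 with a standard error of 0.26 (adjusted p = 0.108 in the same test). For eca-miR-199a-5p, of mesenchymal cells, it was -0.55 (standard error 0.24, adjusted p = 0.202 in that test). eca-miR-26a, at 43961 ± 3691 and 44942 ± 4399 RPM, gave 0.18 with a standard error of 0.21 (adjusted p = 0.648 in edgeR's quasi-likelihood test), close to that of eca-miR-29a. With edgeR's own filter 10 of the 16 were tested and 2 fell, where 5% of the 100 were called, the second being eca-miR-140-3p of cartilage at 1320 ± 1020.4 RPM in chondrocytes and 27.2 ± 32.0 RPM in synoviocytes.

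**Figure D5:**
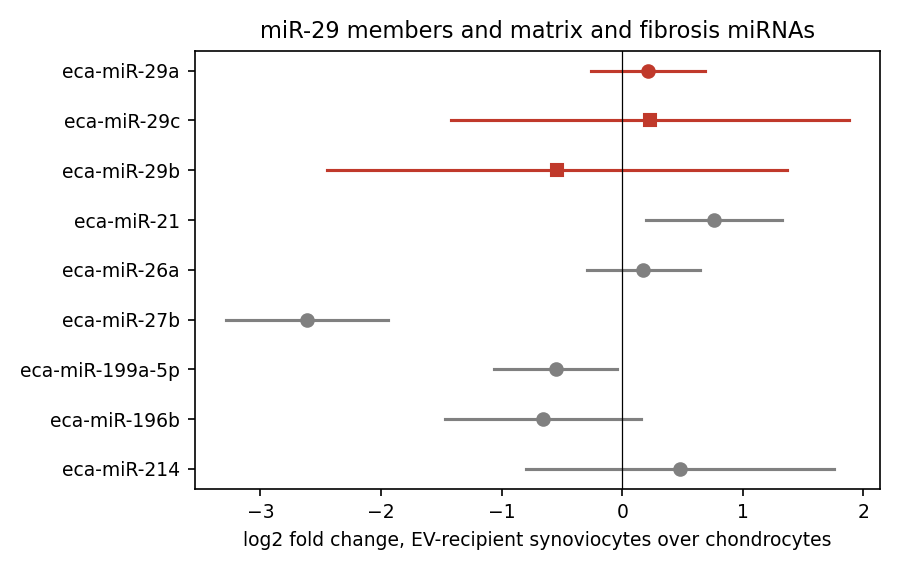
Log2 fold changes of synoviocytes over chondrocytes with 95% intervals from edgeR's quasi-likelihood test (horizontal axis) for the 3 miR-29 members (red) and the 6 tested miRNAs of the matrix and fibrosis list (grey); circles come from the fit over 49 miRNAs and squares from the fit over 100. The intervals of eca-miR-29a (-0.26 to 0.69), eca-miR-29c and eca-miR-29b include 0, and that of eca-miR-27b lies far below it.

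Few miRNAs followed the family across libraries. Over the 9 labelled libraries, the Spearman correlation of RPM with the family sum had a median of 0.058 over the other 48 miRNAs that passed the filter. It was highest for eca-miR-181b (rho = 0.60, n = 9), followed by eca-miR-99b (0.45), eca-miR-181a (0.42), eca-let-7e (0.40) and eca-let-7f (0.38). The lowest rho was -0.766, so the correlation of largest size was a negative one. The points share library depth and the total to which RPM are scaled, and the correlations are given as a description only.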

How the data were processed

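Small RNA libraries (RealSeq, 25 to 28 PCR cycles) were trimmed by the authors with cutadapt 3.3 to at least 17 nt and mapped with Bowtie 1.3.0 and miRDeep2 to EquCab 3.0 (2 mismatches) and to horse miRBase entries (1 mismatch). The authors deposited raw counts of 239 miRNAs and 8 spike-in calibrators, and RPM. RPM were recomputed here from counts and miRNA totals without spike-ins, and differed from the deposited RPM by at most 0.047%. Columns were matched to samples by library name.

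Group differences were computed over the 9 labelled libraries with edgeR 4.0.16 in R 4.3.3 (quasi-likelihood test, TMM, Benjamini-Hochberg adjustment over all miRNAs tested, threshold 0.05). The study's methods name the test and the filter, which sets the threshold at 10 counts of the shallowest library, as RPM (2045). It was applied in at least 2 libraries. Members below it were read from the fit with filterByExpr. Standard errors are the fold change over the square root of the F statistic. Exact permutation tests used Python 3.11.15. Intervals are Wilson intervals at 95%, and a count of 0 is read against a floor of 3 counts. DESeq2 1.42.0 and limma 3.58.1, on log2(RPM + 1) and log2(RPM + 10), were alternatives. Every pair of replicates differed beyond counting error (chi-square at least 16.6 times its degrees of freedom).

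The members, the list of matrix and fibrosis miRNAs and the markers were chosen with earlier results of these data known. Named miRNAs are the members, the 5 closest in pattern to the family sum, the 2 next above and the 2 next below eca-miR-29a in mean RPM, and marker miRNAs. From that list, those that passed the test, those with an unadjusted p under 0.05 in the exact permutation test and the 4 most abundant are named. eca-miR-9a was taken for miR-9.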

Additional observations from a re-analysis of the deposited data

Results flagged for a closer look

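The 3 members were counted in the control, which entered no comparison, at 21053 RPM for eca-miR-29a, 2951 RPM for eca-miR-29c and 394 RPM for eca-miR-29b, each above the 148 RPM that a count of 0 would allow in that library. Among 20 checks of the members' values within a group, of which chance flags about 1 in 20, eca-miR-29b in EV-recipient chondrocyte replicate 2, the deepest library, stood apart at 1.15 counts per 1000 spike-in counts, with the next value at 0.268.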

How the results depend on the processing

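No member passed the threshold under any alternative run. The direction turned with spike-in counts as the scale, for eca-miR-29a (log2 fold change -0.089 in edgeR and log2 ratio of means -0.089), eca-miR-29c (-0.15 and -0.15) and the family sum (log2 ratio -0.096 against 0.071), and for eca-miR-29c also in libraries of at least 10000 miRNA counts or without EV-recipient chondrocyte replicate 1 (log2 ratio -0.035 in both, and -0.028 in edgeR without that library). With each library left out in turn, log2 fold changes ran from 0.14 to 0.31 for eca-miR-29a (adjusted p in edgeR 0.488 to 0.818), from -0.98 to -0.20 for eca-miR-29b and from -0.028 to 0.74 for eca-miR-29c, and log2 ratios of means from 0.0061 to 0.20, -1.16 to -0.35 and -0.035 to 0.87. The log2 ratio of the family sum then ran from 0.011 to 0.20. The share of eca-miR-29c in the family, 0.61 percentage points higher in synoviocytes, turned to -0.28 with counts pooled over a group and -0.72 without chondrocyte replicate 1. The fold changes of the less abundant members grew with limma on log2(RPM + 1), to -2.34 for eca-miR-29b and 2.07 for eca-miR-29c, where a library at 0 weighs heavily. The 4 miRNAs at an adjusted p under 0.05 in edgeR became 0 with spike-in counts as library size (0 also at an unadjusted p), 14 with no filter, 1 with limma on log2(RPM + 1) or log2(RPM + 10), and 1 to 6 without one library. Libraries with the same number in their titles carry different library names. The correlations of their deviations ran from -0.405 to 0.112, which by itself cannot tell whether horses are shared. With a replicate block 1 miRNA was called and eca-miR-29a had a log2 fold change of 0.22 (adjusted p = 0.644 in edgeR). In that fit eca-miR-29b had a log2 fold change of -1.05 and eca-miR-29c one of 1.104 (adjusted p = 0.888 in edgeR for both). The cause of the other shifts was not tested. Depth limits eca-miR-29b and eca-miR-29c in the shallow libraries, where 3 counts are 613 and 175 RPM.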
